A study of Mus musculus with 6 samples.

Results

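Chromatin remodellers are ATP-driven machines that slide, evict or exchange nucleosomes, and 46 genes for their subunits are described here, chosen by name from the 54232 genes of the count table. They comprise 25 subunits of the SWI/SNF complexes, among them the targeted gene Smarcd2, and 17 genes of the ISWI, CHD and INO80 families, together with 4 further ATPases of the SNF2 type (Atrx, Hells, Smarcad1 and Smarcal1). All 46 were found as a single row each. Of these, 44 passed the filter on low counts and were tested, while Dpf1 and Smarca1 did not.

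SWI/SNF complexes come in 3 forms that share an ATPase module around BRG1 (Smarca4) or BRM (Smarca2). Canonical BAF is set apart by ARID1 and DPF proteins, PBAF by ARID2, PBRM1, BRD7 and PHF10, and GBAF (also called ncBAF) by BICRA or BICRAL and BRD9. A BAF60 protein is built into each of them: canonical BAF and PBAF take the product of Smarcd1, Smarcd2 or Smarcd3 in the same place, whereas GBAF is known to hold that of Smarcd1. BAF60b, the product of Smarcd2, is known for its part in the maturation of blood cells. ISWI complexes space nucleosomes evenly, CHD3 and CHD4 are the ATPases of the NuRD complex that couples remodelling to histone deacetylation, and INO80 family complexes act on nucleosomes with variant histones.

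The material was Treg cells, the suppressive CD4 T cells, isolated from mouse spleen by their GFP signal and sequenced as total RNA. One genotype was wild type (WT) and the other a conventional BAF60b knockout (KO), so the gene was disrupted in all cells of the animal, and 3 libraries of each were compared. The labels name neither the age, sex and strain of the mice, nor the gene that carries GFP, nor the exons that the allele removes. They also do not say that libraries came from separate mice, so a p-value here weighs the genotypes only against the spread of these libraries. The question was how gene expression in Treg cells differs without BAF60b. Levels are given as CPM (counts scaled to a fixed total) on TMM-normalized library sizes, and a mean ± SD is over n = 3 libraries. A positive log2 fold change means more RNA in KO, and p-values are those of edgeR's quasi-likelihood test, adjusted by Benjamini-Hochberg over all 13602 genes tested.

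Libraries held between 18167053 and 22502804 reads. The label was checked on Treg markers. Foxp3, the lineage factor, had 559, 564 and 550 CPM in WT and 589, 603 and 595 CPM in KO. Each KO value was above each WT value, but Foxp3 was not called (log2 fold change 0.10, adjusted p = 0.253, edgeR). Of 7 markers 1 was called, Ikzf2, with a log2 fold change of 0.42. In such bulk samples fewer cells of a type and less RNA per cell cannot be told apart. Each of 8 lists of markers of other cells had reads, with no marker at 0 in all libraries. The summed level (CPM by plain library size) of 6 B cell genes was 14.1 to 17.5 CPM in WT and 8.58 to 11.5 CPM in KO, that of 3 plasma cell genes 4.46 to 7.01 and 5.55 to 20.7 CPM, and that of 6 myeloid genes 22.2 to 28.6 and 11.9 to 79.3 CPM. Dendritic cell genes summed to 63.4 to 92.1 CPM over all libraries, CD8 T cell genes to 11.3 to 14.9 CPM, and neutrophil and red cell genes to at most 11.4 CPM. The dendritic sum was nearly all Bst2, with 1296 to 1929 reads a library. Itgax had at most 27 reads, and Flt3, Siglech, Xcr1 and Clec9a at most 5. Most of the CD8 sum was Cd8b1 (191 to 289 reads a library), beside 10 to 36 reads of Cd8a. NK cell genes summed to 2.14 to 2.92 CPM in WT and 0.889 to 1.74 CPM in KO. Called among these lists were Cd79b of B cells (log2 fold change -0.69), Klrb1c of NK cells (-1.14) and Sdc1 of plasma cells (2.84, from 3 to 5 reads a library in WT and 14 to 39 in KO). The part of other cells in the values that follow was not tested. Transcripts of the Y chromosome had 0 reads in WT 1 and KO 2, and Xist, which is transcribed from the inactive X chromosome, had 0 in KO 3. Reads of both kinds were present in WT 2, WT 3 and KO 1.

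Reads can be assigned to a paralog only where the sequences differ. Over 1501 aligned coding bases Smarcd2 and Smarcd1 were 70.9% identical, and their longest run without a difference was 18 bases. Smarcd2 and Smarcd3 were 72.6% identical with a longest run of 18 bases. The stretch around the longest run shared with Smarcd1 is printed below to show how densely the differences lie, 5′ to 3′ from the coding sequences of GENCODE M21 (mm10). It lies in coding exons at chr11:106264097-106264291 (minus strand) for Smarcd2, chr15:99712164-99712394 (plus strand) for Smarcd1 and chr5:24592782-24593113 (minus strand) for Smarcd3, each interrupted by an intron that is left out. Capitals mark bases that differ from Smarcd2.
Smarcd2: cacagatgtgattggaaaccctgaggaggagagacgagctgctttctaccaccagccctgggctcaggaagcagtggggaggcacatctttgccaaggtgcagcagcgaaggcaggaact
Smarcd1: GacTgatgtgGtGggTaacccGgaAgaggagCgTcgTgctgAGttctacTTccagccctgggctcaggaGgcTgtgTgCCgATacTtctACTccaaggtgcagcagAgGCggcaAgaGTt
Smarcd3: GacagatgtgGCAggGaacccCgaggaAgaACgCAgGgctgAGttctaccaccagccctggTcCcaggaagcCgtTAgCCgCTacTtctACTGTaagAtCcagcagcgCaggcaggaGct
Of the 120 bases, 31 differed in Smarcd1 and 33 in Smarcd3.

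Smarcd2 transcripts were strongly reduced in KO but not absent, and neither paralog passed the test. Smarcd2 (chromosome 11, 106263179 to 106272972) stood at 204, 199 and 192 CPM in WT 1, 2 and 3 and at 58.1, 57.5 and 59.0 CPM in KO 1, 2 and 3. The groups were far apart, and the KO libraries lay close together, with an SD of 0.75 CPM. The log2 fold change was -1.77 (SE 0.05; edgeR, adjusted p = 6.77e-08), which leaves 0.293 times the WT level with a 95% interval from 0.273 to 0.316. It was -1.83 between the libraries without Y chromosome reads (1 WT and 1 KO) and -1.74 between the others (2 WT and 2 KO). No annotated exon of another gene overlaps those of Smarcd2. Whether the remaining reads come from exons that the allele keeps was not tested.

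Smarcd1, which encodes BAF60a, had 49.8, 41.7 and 45.7 CPM in WT and 44.4, 47.5 and 43.8 CPM in KO. All KO values lay inside the WT range. Its fold of KO over WT was 0.990, with an interval from 0.884 to 1.109 (adjusted p = 0.940, edgeR), so a rise of more than that upper bound lies outside the interval. Smarcd3, the gene of BAF60c, was measured at 1.92, 2.102 and 1.46 CPM in WT and 1.41, 2.34 and 1.99 CPM in KO. At this depth, 28 to 46 reads per library, its interval was wide, from 0.691 to 1.584-fold. In addition 48.2% of its exon bases overlap those of the antisense neighbour Chpf2, whose 4643 reads far outnumber its 227, which leaves the Smarcd3 count uncertain.

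Per kilobase of exon, Smarcd2 was the main BAF60 gene of WT cells and stayed the largest in KO. Its share of the reads per kilobase of the 3 paralogs was 81.7%, 83.7% and 82.1% in the WT libraries and 58.9%, 56.7% and 59.3% in the KO libraries. Every KO share was below every WT share, and the means were 82.5% ± 1.07 and 58.3% ± 1.43 (n = 3; exact permutation test, two-sided, p = 0.1, the smallest that 3 against 3 can give). The summed level of the paralogs was 67.0 ± 2.37 CPM per exon kilobase in WT and 27.8 ± 0.41 in KO, 0.415 times as much, without overlap (exact permutation test, p = 0.1). Both the share and the sum contain the targeted Smarcd2, so these tests add nothing separate from its own fall. The sum in KO held 16.2 ± 0.21 of Smarcd2 and 11.2 ± 0.49 of Smarcd1, which had been 11.4 ± 0.996 in WT. These are levels of RNA over the exons of the annotation, and what protein the KO transcripts give was not tested.

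**Figure D1:**
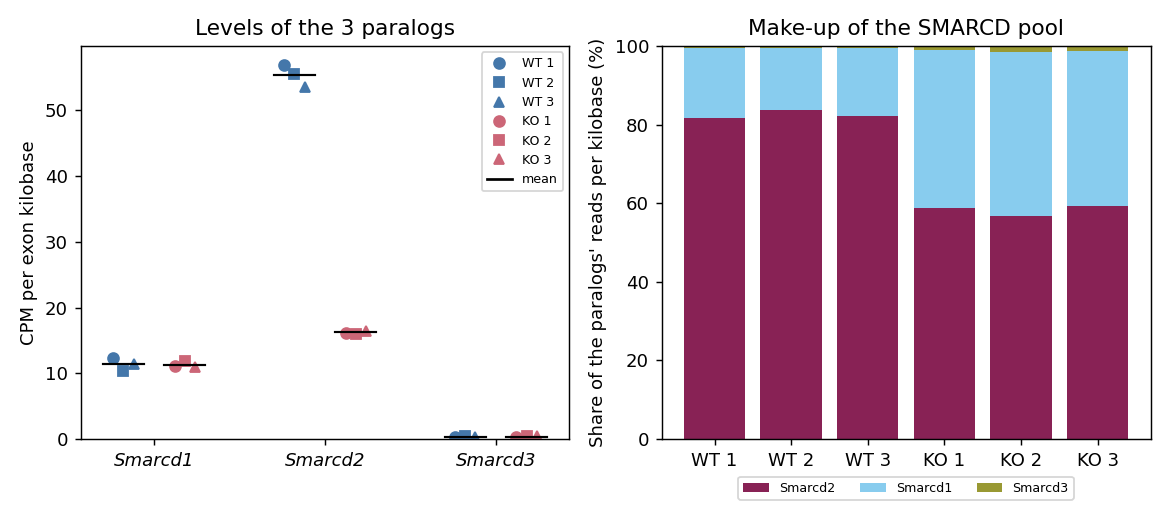
Left, CPM per exon kilobase of the 3 BAF60 genes in each library (points) with the mean of each genotype (lines). Right, each gene's share of their summed level in each library (stacked bars); the Smarcd2 share is 81.7% to 83.7% in WT and 56.7% to 59.3% in KO.

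Among the 44 tested remodeller genes 2 were called (adjusted p under 0.05), Smarcd2 lower and Chd3 higher, which is 4.55% beside 6.45% of all genes tested. Smarcd2 is the targeted gene itself. Without it 1 of 43 was called, 2.33%, beside 7.05% of the 11207 genes in the same range of mean CPM. That range ran from 1.87 to 1428 CPM, and genes were not matched on level within it. At an unadjusted p under 0.05 there were 7 of the 44, beside 20.4% of all genes. The count of called genes was 877 over the whole table. By DESeq2 the same 2 genes were called, with 964 of 24676 genes (3.91%). That total counts every gene with a p-value, without the filter on low counts. Limma-voom too called these 2, with 870 of 13602 genes (6.4%). The median absolute log2 fold change of the tested members was 0.05, against 0.11 over all genes. Intervals were narrow: in 41 of 44 genes the 95% interval, not adjusted for the number of genes, lay within a 1.5-fold change in either direction, and in 36 within 1.2-fold. Smarcd2, Smarcd3 and Srcap were the 3 outside 1.5-fold. Of all 13602 genes tested 9308 had an interval within 1.5-fold. These 2 comparisons with all genes were not matched on level either, and the median SE was 0.057 in the members and 0.093 over all genes. The groups did not overlap in 9 members, 4 higher and 5 lower in KO, a share of 20.5% beside 25.7% of all genes (12.6% higher and 13% lower).

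**Figure D2:**
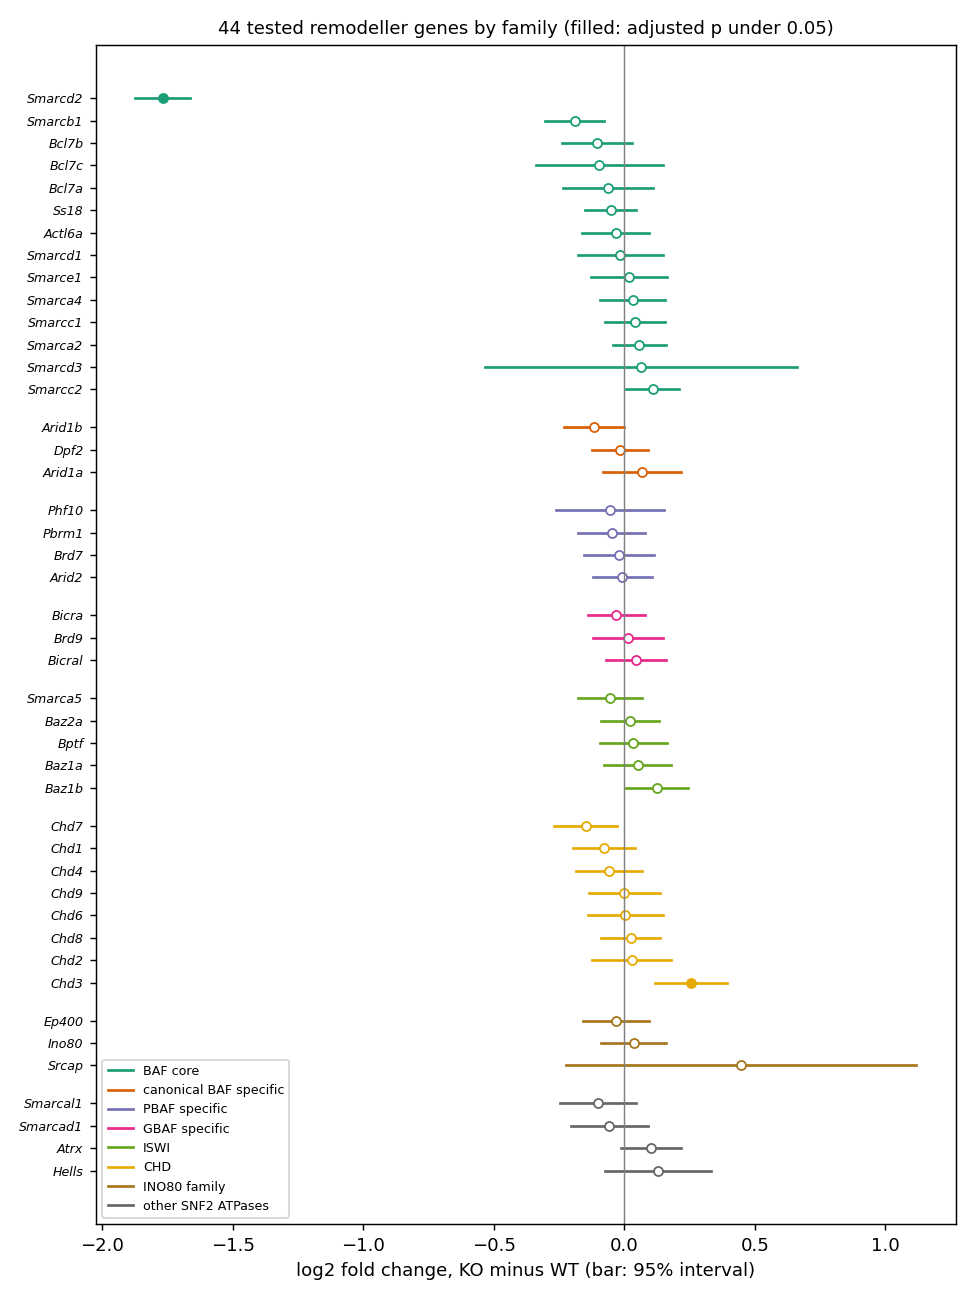
Log2 fold change (KO minus WT, x axis) of the 44 tested genes with 95% intervals, ordered within family; filled points passed an adjusted p of 0.05. Smarcd2 stands alone at -1.77, Chd3 is filled at 0.25, and the wide intervals belong to Smarcd3 and Srcap, the genes with fewest reads.

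The SWI/SNF core is here a list of 14 genes, not all of whose products are built into every form. Of the 13 besides Smarcd2 0 passed by edgeR, DESeq2 or limma-voom, and 2 had an unadjusted p under 0.05. Log2 fold changes of the 13 lay between -0.19 and 0.11. The groups did not overlap in 4 of them, with Smarca2 and Smarcc2 higher and Smarcb1 and Ss18 lower in KO. With Smarcd2 that is 35.7% of the core, beside 25.7% of all genes. The ATPase gene Smarca4 had 223 ± 8.77 CPM in WT against 228 ± 13.5 in KO, a log2 fold change of 0.03. The other ATPase gene, Smarca2, had 129 ± 1.93 and 135 ± 4.38 CPM (0.06). For the scaffold proteins BAF155 and BAF170, Smarcc1 gave a log2 fold change of 0.04 and Smarcc2 one of 0.11. Smarcc2 read 187, 189.8 and 184 CPM in WT and 207, 204 and 194 CPM in KO, without overlap, but did not pass (adjusted p = 0.216, edgeR). Smarce1, which encodes the DNA-binding subunit BAF57, and Actl6a, the gene of an actin-related protein, had log2 fold changes of 0.02 and -0.03. A part of the Actl6a exons, 11.6%, overlaps Mrpl47, which runs antisense. Bcl7a, Bcl7b, Bcl7c and Ss18, small subunits bound to the ATPase module, had log2 fold changes between -0.10 and -0.05.

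Smarcb1, the core subunit that contacts the nucleosome acidic patch and is a tumour suppressor, came nearest to the threshold after Chd3 and Smarcd2. It was measured at 86.6, 83.8 and 83.5 CPM in WT and at 77.8, 73.1 and 71.7 CPM in KO. All KO values lay below all WT values, and its log2 fold change of -0.19 (SE 0.05) missed the threshold (edgeR, adjusted p = 0.0559). Between libraries without Y chromosome reads (1 WT and 1 KO) the log2 ratio was -0.24, and between the others (2 WT and 2 KO) -0.16. The adjusted p (edgeR) was 0.0449 without KO replicate 1 (5.34% of all genes called) and 0.108 to 0.178 with another library left out. With no filter on low counts it was 0.0364, where 6.58% of 24676 genes were called.

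The subunits that define the separate forms differed little. In canonical BAF, Arid1a, which encodes a DNA-binding subunit often mutated in tumours, had 579, 633 and 644 CPM in WT and 699, 596 and 652 CPM in KO. The 2 groups overlapped (log2 fold change 0.07, adjusted p = 0.634, edgeR). Its paralog Arid1b went from 163 ± 3.79 to 151 ± 7.70 CPM (-0.12, adjusted p = 0.234), and Dpf2, a reader of histone acylation, had a log2 fold change of -0.02. Dpf1, known from neurons, had 0 reads in all 6 libraries, which allows up to 3 counts or 0.133 to 0.165 CPM in a library (counting error only). In PBAF, Arid2 lay at -0.01, Brd7 at -0.02, and Pbrm1 and Phf10 both at -0.05, and Arid2 alone turned positive with library-size (0.0042) and upper quartile (0.0080) scaling. Phf10 shares 9.56% of its exon bases with 1600012H06Rik, which is transcribed the other way. In GBAF, Bicra gave -0.03, Bicral 0.05 and the bromodomain gene Brd9 0.01. Of these 11 genes 10 were tested and 0 passed (edgeR, DESeq2 or limma-voom), with 1, Arid1b, at an unadjusted p under 0.05. The highest fold among them was that of Arid1a, 1.049.

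Paralogs that compete for a place were then compared within libraries, per exon kilobase, in 6 pairs. Arid1a made up 80.6% ± 0.53 of the ARID1 reads in WT and 82.5% ± 0.75 in KO. Smarcc1 held 33.4% ± 0.62 of its pair in WT and 32.3% ± 0.41 in KO. Chd4 held 39.1% ± 2.14 of the Chd3 and Chd4 reads in WT and 34.1% ± 1.69 in KO. In each of these 3 pairs the genotypes did not overlap, and each gave p = 0.1 by the exact permutation test (two-sided, adjusted p = 0.2 over the 6 pairs). Among single genes the groups did not overlap in 25.7% of all tested, and no such share was taken over other pairs of genes. The Chd4 share contains Chd3, which had 1302 ± 47.6 CPM in WT and 1554 ± 114 in KO, whereas the groups of Chd4 itself overlapped. Smarca4 held 79.1% ± 0.45 in WT and 78.8% ± 0.44 in KO (exact p = 0.5, adjusted p = 0.6). Bicra held 32.9% ± 0.42 and 31.8% ± 1.57 (exact p = 0.4, adjusted p = 0.6). Smarca1, the ISWI ATPase gene of neurons, had 1 read in KO 2 and 0 elsewhere, so that Smarca5 supplied at least 99.96% of that pair's reads per kilobase in every library (exact p = 1.0, adjusted p = 1.0). The KO minus WT difference was -4.99 percentage points for Chd4 and 1.91 points for Arid1a, beside -24.2 points for the targeted Smarcd2 in the BAF60 pool. The level of a share depends on the length used: with the longest transcript in place of all exons Smarca4 held 61.5% ± 0.65 of its pair in WT and 61.1% ± 0.63 in KO.

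**Figure D3:**
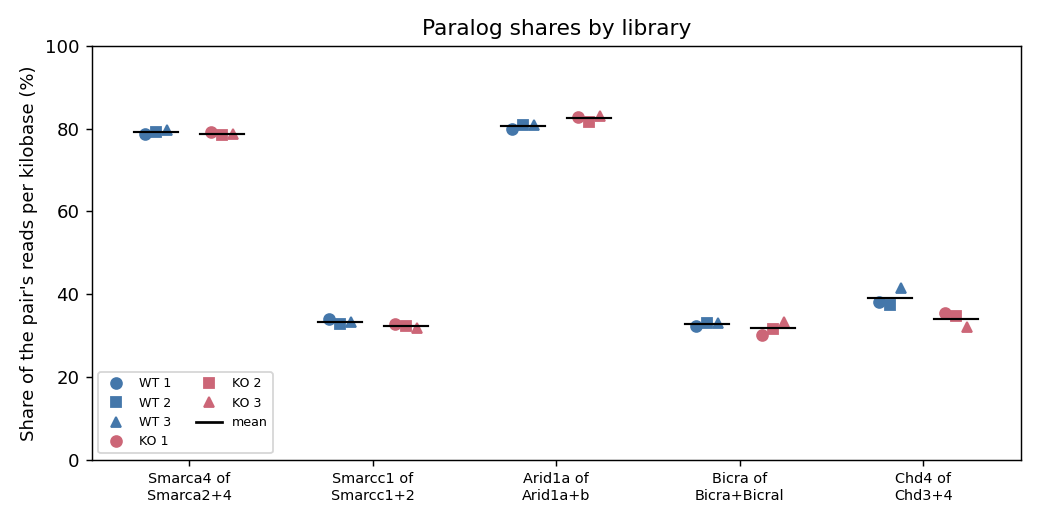
Share of a pair's reads per exon kilobase held by the named gene (y axis, percent) in each library (points) with genotype means (lines), for 5 pairs of paralogs. Genotype means lie within a few points of each other in all pairs, with the widest gap for Chd4, 39.1% in WT and 34.1% in KO. Its libraries run from 37.5% to 41.5% in WT and from 32.2% to 35.4% in KO.

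Of the CHD family only Chd3 was called. Chd3 (chromosome 11, 69343273 to 69369406), the gene of Mi-2alpha, had 1304, 1349 and 1253 CPM in WT and 1521, 1459 and 1681 CPM in KO. Each KO library was above each WT library, and KO 3 was the highest. The log2 fold change was 0.25 (SE 0.06; edgeR, adjusted p = 0.0365), and 3.25% of all genes were called higher. The call was lost without any 1 of WT replicates 1, 2 and 3 or KO replicates 1 and 3 (edgeR, adjusted p from 0.0616 to 0.141), and kept without KO replicate 2 (adjusted p = 0.0244). With these libraries left out in turn, 2.46% (WT 1), 2.47% (WT 2), 3.99% (WT 3), 5.34% (KO 1), 5.42% (KO 2) and 6.11% (KO 3) of all genes were called. A fit that also held a term for the level of Y chromosome transcripts gave 0.22 (edgeR, adjusted p = 0.0588), where 6.99% of all genes were called. Within the libraries lacking Y chromosome reads (1 WT and 1 KO) the log2 ratio was 0.16, and within the others (2 WT and 2 KO) 0.30.

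Chd4, which encodes the paralog Mi-2beta, read 765, 769 and 844 CPM in WT and 792, 734 and 757 CPM in KO. Its groups overlapped, and the log2 fold change was -0.06 (interval -0.18 to 0.07, adjusted p = 0.624, edgeR). The coding sequences of Chd3 and Chd4 were 73.3% identical, with a longest shared run of 35 bases, the longest of the 9 paralog pairs compared. The 120 bases around it are printed because Chd3 was called and Chd4 was not; they lie in coding exons at chr11:69353849-69354134 (minus strand) for Chd3 and chr6:125113517-125113946 (plus strand) for Chd4 (mm10), with capitals where Chd4 differs.
Chd3: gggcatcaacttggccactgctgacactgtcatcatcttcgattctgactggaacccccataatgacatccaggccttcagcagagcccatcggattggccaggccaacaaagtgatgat
Chd4: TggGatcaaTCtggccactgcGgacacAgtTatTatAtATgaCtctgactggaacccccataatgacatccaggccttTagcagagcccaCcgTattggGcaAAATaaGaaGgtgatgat
Even in this stretch 22 bases differed.

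Other CHD genes did not pass. Chd7, a remodeller of enhancers mutated in CHARGE syndrome, had 78.7, 78.3 and 80.0 CPM in WT and 74.6, 72.6 and 66.8 CPM in KO. These groups did not overlap (log2 fold change -0.15, adjusted p = 0.154, edgeR). Chd1, which acts with elongating RNA polymerase, had a log2 fold change of -0.08, and Chd2, Chd6, Chd8 and Chd9 lay between 0.00 and 0.03. The exons of Chd2 overlap those of 1810026B05Rik (18724 reads, same strand) over 18.4% of their bases, which leaves the Chd2 count uncertain.

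Partners of Chd3 and Chd4 in NuRD and other CHD genes were taken from a list of 12, of which 11 were tested, 0 rose and 1 fell, by edgeR, DESeq2 and limma-voom alike, and 2 had an unadjusted p under 0.05. Gatad2a, which links the deacetylase and remodelling modules of NuRD, had 137, 139 and 148 CPM in WT and 128, 119 and 120.4 CPM in KO. The KO values were all lower. Its log2 fold change was -0.20 (SE 0.05; edgeR, adjusted p = 0.0464), and 3.2% of all genes were called lower. That call was lost with upper quartile normalization (adjusted p = 0.0627) and without any library except KO replicate 1 (adjusted p from 0.0806 to 0.154; 0.0423 without KO replicate 1). Its paralog Gatad2b gave 0.03 (adjusted p = 0.729). Mta1, a NuRD scaffold gene named after its values were seen, had 117, 117 and 111 CPM in WT and 103, 104 and 102 CPM in KO (-0.16, adjusted p = 0.0724). The deacetylase genes Hdac1 and Hdac2 gave -0.02 and -0.04.

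**Figure D4:**
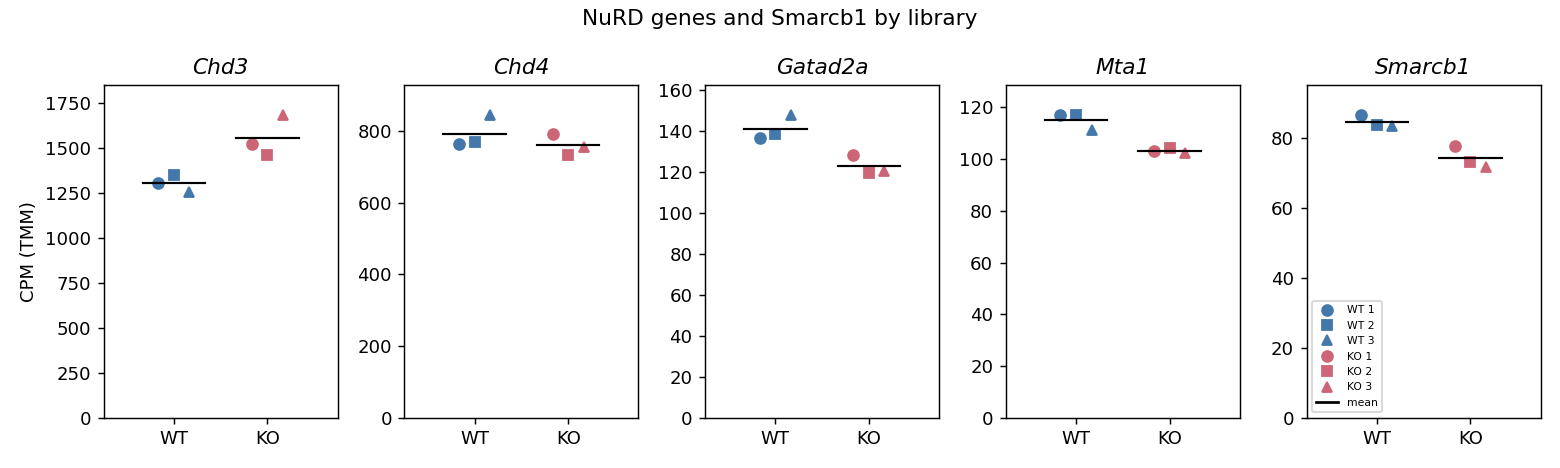
CPM of 5 genes in each library (points, y axes from 0, scaled per gene) with genotype means (lines). Chd3 is higher in KO (1459 to 1681 against 1253 to 1349 CPM), Chd4 overlaps, and Gatad2a, Mta1 and Smarcb1 are lower in KO without overlap; Mta1 and Smarcb1 did not pass the test.

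ISWI genes were all within 0.13 of 0 on the log2 scale. The gene of the ATPase SNF2H, Smarca5, gave -0.06, from 168 ± 2.65 to 162 ± 10.6 CPM. Baz1b, the gene of WSTF, had 283, 295.5 and 286 CPM in WT and 334, 299.9 and 309 CPM in KO. It was higher in each KO library, though not past the threshold (log2 fold change 0.13, adjusted p = 0.215, edgeR). Bptf, Baz1a and Baz2a, which encode the large partners of the NURF, ACF and NoRC complexes, gave 0.03, 0.05 and 0.02. Among 7 further ISWI partners 6 were tested and 0 called by edgeR, DESeq2 or limma-voom, with 1 at an unadjusted p under 0.05. That gene was the histone chaperone Rbbp7, with 178 ± 12.4 CPM in WT against 197 ± 1.87 in KO (0.15, adjusted p = 0.172). Rbbp7 is also a part of NuRD.

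In the INO80 family, Ino80, the ATPase gene that names it (log2 fold change 0.04), and Ep400, of the TIP60 complex (-0.03), did not pass. Srcap, which deposits the histone variant H2A.Z, was counted with only 30 to 89 reads in a library. It read 1.64, 2.20 and 2.67 CPM in WT and 3.12, 1.83 and 3.94 CPM in KO, with overlap and an interval of the log2 fold change from -0.22 to 1.12. Of its exon bases 61.7% overlap Gm42715, annotated on the same strand, so the Srcap count is uncertain and its level cannot be set beside the others. Of 29 partner genes in the INO80, SRCAP and TIP60 complexes 0 passed (edgeR, DESeq2 or limma-voom) and 3 had an unadjusted p under 0.05. The smallest p belonged to Meaf6, a subunit of acetyltransferase complexes, which had 37.2 ± 1.38 CPM in WT against 31.7 ± 1.64 in KO (-0.23, adjusted p = 0.0722, edgeR).

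The 4 remaining ATPases did not pass either. Atrx, on the X chromosome and active at heterochromatin and telomeres, had 358, 375 and 352 CPM in WT and 401, 367 and 398 CPM in KO. KO 2, which lacked Y chromosome reads, was inside the WT range. The log2 fold change was 0.10 (adjusted p = 0.310, edgeR) and 0.08 with the term for Y chromosome transcripts (adjusted p = 0.465). Hells, a DNA methylation helper that rises in dividing cells, had 14.7, 13.8 and 12.8 CPM in WT and 14.3, 15.2 and 15.5 CPM in KO (0.13, adjusted p = 0.486, edgeR), with overlap. Beside it, 2 of 19 proliferation genes rose (Mki67, a marker of cycling cells, by 0.63 on the log2 scale), 0 fell, and their summed level was 880.4 to 933 CPM in WT and 919.8 to 978 CPM in KO. Their part in the Hells value was not tested. Smarcad1, which helps resect DNA breaks, gave -0.06, and Smarcal1, which remodels stalled replication forks, gave -0.10. Of 9 further SNF2 ATPases 0 were called by edgeR, DESeq2 or limma-voom and 0 had an unadjusted p under 0.05. Rad54l had the smallest p (log2 fold change 0.46, adjusted p = 0.395). In the list of 4 other BAF subunits, Actl6b had 0 reads and Dpf3 at most 4, and the 2 tested did not pass; Ss18l1, a paralog of Ss18, had the smaller p (0.07, adjusted p = 0.794).

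The families were then set side by side as a description, with no test between them. Of 24 tested SWI/SNF subunits 1 was called (Smarcd2, 4.17%), and of 16 genes of the ISWI, CHD and INO80 families 1 was called (Chd3, 6.25%), both near or below the 6.45% of all genes. Smarcd2 is the targeted gene, and without it 0 of 23 SWI/SNF subunits were called. The median log2 fold change was -0.02 for SWI/SNF, with or without Smarcd2, and 0.02 for the other 3 families, where all genes had a median of 0.00. By list the medians were -0.02 in the core, -0.02 for canonical BAF, -0.03 for PBAF and 0.01 for GBAF. They were 0.03 for ISWI, 0.00 for CHD and 0.04 for INO80. The sign of the SWI/SNF median held with each library left out, and that of the other 3 families changed without KO replicate 1 (-0.02). With a library left out the medians of single families moved across 0 in 5 of 7 families: canonical BAF lay between -0.049 and 0.012, GBAF between -0.024 and 0.035, ISWI between -0.013 and 0.083, CHD between -0.065 and 0.042 and INO80 between -0.0029 and 0.074. Those of the core (-0.050 to -0.0032) and PBAF (-0.060 to -0.0062) stayed below 0. The INO80 median was 0.0015 when genes averaging under 10 CPM (here Srcap) were left out. Log2 fold changes were below 0 in 15 of 24 SWI/SNF subunits (13 with upper quartile and 14 with library-size scaling) and in 5 of 16 genes of the other families, beside 6648 of the 13602 genes tested. Leaving Smarcd2 out, 14 of 23 SWI/SNF subunits were below 0 in the reported fit. Over all 61 partner genes 57 were tested, 0 rose and 1 fell by each of the 3 tools, a share of 1.75% by edgeR.

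Levels per exon kilobase spanned a wide range in WT. Chd3 was the highest at 154 ± 5.64 CPM per kilobase, followed by Chd4 at 98.8 ± 5.61. Smarcd2 came next at 55.3 ± 1.74, and Arid1a at 53.9 ± 3.04 did not differ from it beyond the spread. Smarca4 (34.4 ± 1.35), Baz2a (33.8 ± 0.67) and Smarcc2 (33.7 ± 0.50) likewise could not be ordered. In KO, Smarcd2 moved from rank 3 to rank 22, with 16.2 ± 0.21 CPM per kilobase. It then stood among Ss18 (16.3 ± 0.25), Smarcc1 (17.4 ± 0.88) and Brd7 (15.3 ± 1.15), other SWI/SNF subunits. These levels and ranks depend on the length used, here all annotated exons. Ss18 has 9419 such bases but a longest transcript of 4153, and Smarcd2 has 3589 and 2747. Ranks by longest transcript were not taken. Of the other tested genes Baz1b moved farthest, from rank 14 to rank 9.

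The 43 tested genes besides Smarcd2 had a median coefficient of variation within a genotype of 4.83%. It was 6.60% in the 11207 genes in the same range of mean CPM, which were not matched on level within that range. What variation there was ran along single libraries. KO 1 had the highest value of the 6 libraries in 17 of the 43 genes, while it was highest in 14.2% of all genes. KO 2 and KO 3 had the lowest value in 12 genes each, but the share of all genes in which they were lowest was not taken. The deviation of a library from the others of its genotype also ran with the length of the longest transcript across the 43 genes, in both genotypes. Spearman's rho was 0.60 for KO 1, -0.64 for KO 2 and 0.14 for KO 3, and -0.36 for WT 1, -0.07 for WT 2 and 0.46 for WT 3. The 3 deviations of a genotype sum to 0 for each gene, so a rise in one library and a fall in another are not separate observations. Across 13588 genes with a length rho lay between -0.13 (KO 3) and 0.15 (KO 1). Genes are not independent replicates, and all points of a library share its depth and preparation. Arid1a (699 against 596 and 652 CPM) and Bptf (355 against 309 and 337 CPM) show the pattern. KO 2 was also the library with the highest summed myeloid markers (79.3 CPM) and with no Y chromosome reads. The part of these in the pattern was not tested.

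**Figure D5:**
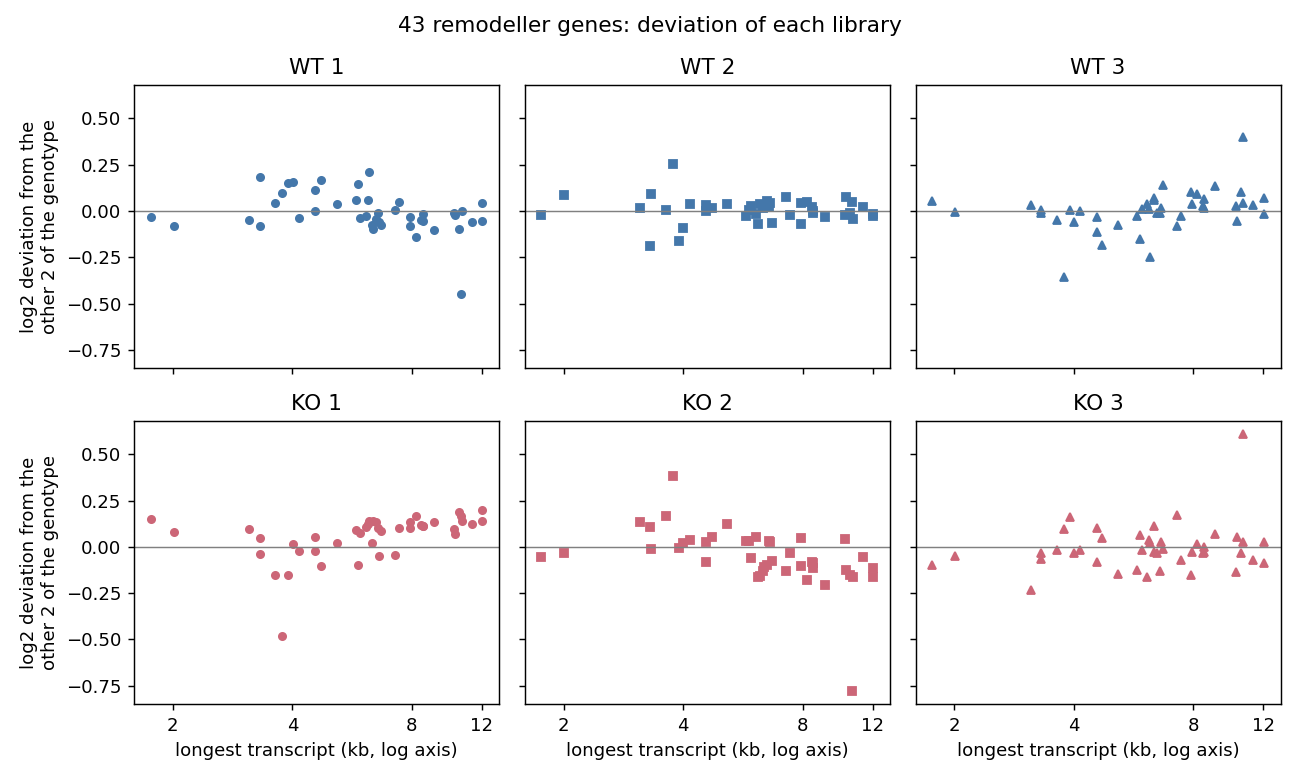
Deviation of each library from the mean of the other 2 libraries of its genotype (log2, y axis) against the longest annotated transcript (kilobases, log axis) for the 43 tested genes besides Smarcd2. Points climb with length in KO 1 (rho 0.60) and WT 3 (0.46) and descend in KO 2 (-0.64) and WT 1 (-0.36).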

How the data were processed

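RNA-seq of sorted mouse spleen Treg cells gave 6 libraries, 3 WT and 3 KO, grouped by their titles. The authors deposited 1 table of unnormalized counts, whole numbers for each gene and library. Tools named in the submitters' processing notes are HISAT2 2.1.0, fastp 0.23.2, DESeq2 1.34.0 and Picard, with the build mm10. Of the counter, its strand setting and the annotation release it can only be said: not given in the sources used here. Without a known strand setting, overlapping genes may not be separable. Within a genotype, pairs of libraries differed by more than sampling noise (chi-square per degree of freedom at least 5.39).

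Genes were kept by filterByExpr (minimum count 10, minimum total 15), normalized by TMM and tested with edgeR 4.0.16 (R 4.3.3), quasi-likelihood F test on genotype, Benjamini-Hochberg adjusted p under 0.05 over all genes. The SE is the log2 fold change divided by the square root of F, and 95% intervals use its t quantile. Exon lengths and overlaps came from GENCODE M21, on mm10, which gave 45 of the 46 genes the same start and end as the table. Shares used exact permutation tests. As alternatives served library-size, RLE and upper quartile scaling, limma-voom (limma 3.58.1), DESeq2 1.42.0, no filter, a minimum mean of 2 CPM, a replicate block, a male-share covariate (summed Y chromosome reads), other-cell and sex-linked genes left out of the scaling, an adjusted p under 0.1 and each library left out. The steps were tested on simulated data.

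The members, lists and alternatives were chosen with earlier results of these data known. All members are named. Of each partner list, the called genes (up to 4) or the gene with the smallest p are named. Gatad2b, Ikzf2, Cd79b, Klrb1c, Sdc1, Mta1, Hdac1, Hdac2, Actl6b and Dpf3 were chosen after their values were seen. So were Bst2, Itgax, Flt3, Siglech, Xcr1, Clec9a, Cd8a and Cd8b1.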

Additional observations from a re-analysis of the deposited data

How the results depend on the processing

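Smarcd2 was called under every alternative run, with log2 fold changes from -1.79 to -1.75. The number of called members was 2 in the reported fit, 3 (with Smarcb1) with no filter and at an adjusted p under 0.1, 1 (Smarcd2) with the male-share covariate, and between 1 and 2 with a library left out. Over all genes the count was 877, 344 to 848 with a library left out, 1624 with no filter and 1355 at an adjusted p under 0.1. Of 831 values of single genes under the alternatives 47 had another sign than the main value, in 18 genes with an absolute log2 fold change of at most 0.07, of which 0 were called. The GBAF median was 0.026 with library-size scaling, 0.030 with upper quartile scaling, and -0.024 to 0.035 with a library left out. With a library left out the PBAF median lay between -0.060 and -0.0062 and the SWI/SNF median between -0.044 and -0.0096. The KO minus WT difference of the summed BAF60 genes, -39.2 CPM per exon kilobase, was -51.2 per kilobase of longest transcript and -140.7 in CPM without length, which are other units.

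The replicate numbers did not pair the libraries: deviations of same-numbered libraries correlated at -0.17, -0.02 and 0.17, and WT 1 correlated best with KO 2 (0.25). With the replicate number as a block 738 genes and 1 member (Smarcd2) were called, Chd3 had an adjusted p of 0.1004 and Gatad2a of 0.0880 (edgeR). Among members and partners no other call changed under the block. Depth limits Smarcd3, Srcap, Dpf1 and Smarca1, while the other members had at least 226 reads in each library.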
